A study of Homo sapiens with 48 samples.

Results

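Mitosis and spindle genes were examined as a set of 46 named genes, which encode the cyclins and kinases of mitotic entry, the spindle checkpoint and anaphase machinery, kinetochore and spindle proteins, and the motors and scaffolds of cytokinesis. They were found by symbol in the annotation of the array's probes, which gave 71 probes, and 68 of these passed a filter on dim probes. All 46 genes kept at least 1 probe, among 11886 genes measured, and each gene was read from its brightest kept probe. Of the 46 genes, 38 were above background on all 48 arrays. The other 8 were CDC25C, PLK1, BUB1B, CDCA3, SPAG5, MKI67, CCP110 and KATNAL1.

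The cells were U2OS, a human osteosarcoma line, and every group was the same single clone with a stably expressed wild-type rat glucocorticoid receptor alpha. Cells had received siHic5_2, a single siRNA against Hic-5 (gene TGFB1I1, a focal adhesion protein and steroid receptor coregulator), or siNS, a nonspecific siRNA, or no siRNA (NI). Each of these 3 states was harvested after 0, 2, 4 and 24 h of dexamethasone, a synthetic glucocorticoid, which made 12 groups of 4 arrays. Transfected wells got 60 pmol of siRNA, the hormone came 2 days later for the 24 h time and 3 days later for 2 and 4 h, and all wells were harvested together. Whether replicates came from separate cultures is not stated, and p-values therefore cover no more than the spread between these arrays, which may be technical. With 1 siRNA against Hic-5, loss of Hic-5 and any other action of that siRNA cannot be told apart.

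Entry into mitosis is driven by CDK1 bound to A and B type cyclins, and anaphase begins when the checkpoint releases CDC20 to the anaphase-promoting complex. Most of these genes are transcribed late in the cell cycle and stay low in cells that do not divide. Many of their promoters hold CCAAT boxes and a short element called CHR. Through CHR, repressor complexes keep these genes off early in the cycle, and activators such as FOXM1 and B-MYB turn them on later. In bulk RNA, fewer dividing cells and less RNA per cell cannot be told apart.

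Arrays had median intensities of 133.6 to 193.0 and 31.7 to 38.3% of probes above background. TGFB1I1 was 9.38% of its siNS level in siHic5_2 cells at 0 h and 9.93% at 2 h, with 2 and 1 of the 4 siHic5_2 arrays above background at these times. On the siHic5_2 arrays of 4 and 24 h it was not well above background, which made it at least 10.6-fold and at least 5.71-fold lower there. Its 4 siHic5_2 arrays lay below the 4 siNS arrays at each time (exact permutation p = 0.0286 each, two-sided, the smallest that 4 against 4 arrays allow). Of the 7 mesenchymal and bone markers, 6 (COL1A1, SPARC, VIM, RUNX2, CDH2 and ALPL) were above background on every array, and COL1A2 did not pass the filter. The blood markers PTPRC, CD3E and HBB did not pass it, nor did the epithelial markers CDH1 and KRT5 and the endothelial markers PECAM1 and CDH5. The epithelial marker EPCAM was above background on all 48 arrays. The epithelial markers KRT14 and ELF3 and the endothelial markers VWF and KDR also passed the filter, but were not above background on every array.

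Replicates of the mitosis genes spread unevenly, and the siHic5_2 arrays with replicate number 2 stood apart. On the log2 intensity scale the median of the 46 genes on these arrays was 10.46 at 0 h, 10.57 at 2 h, 10.39 at 4 h and 9.95 at 24 h. On the other siHic5_2 arrays it was 9.41 to 9.50 at 0 h, 9.52 to 9.83 at 2 h, 9.34 to 9.79 at 4 h and 8.22 to 8.88 at 24 h. Number 2 was the highest siHic5_2 array at all 4 times for 41 of the 46 genes, against 4.41% of all probes, and FOXM1, AURKB, BUB3, MKI67 and CCP110 were the exceptions. Number 3 was the lowest at all 4 times for 18 of the genes, against 1.05% of all probes.

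Each siHic5_2 array was also set against the mean of the siNS arrays of its time. On the arrays numbered 2 the median difference of the 46 genes was -0.08, -0.17, -0.22 and -0.19 at 0, 2, 4 and 24 h. The arrays numbered 1, 3 and 4 gave -1.04, -1.19 and -0.98 at 0 h, and -1.25, -1.71 and -1.07 at 24 h. The mitosis genes were thus near the siNS level on 1 siHic5_2 array of each time and well below it on the other 3. TGFB1I1 was at 5.99, 6.06, 5.69 and 4.91 on the arrays numbered 2, within or below the 5.30 to 6.75 of the other siHic5_2 arrays. The 4776 other probes called lower with siHic5_2 over all times had medians of -0.35, -0.32, -0.39 and -0.45 on number 2, and of -0.67 to -0.45 on the other numbers. These 4 arrays lay on 4 different slides, and the cause of their difference was not tested.

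**Figure D1:**
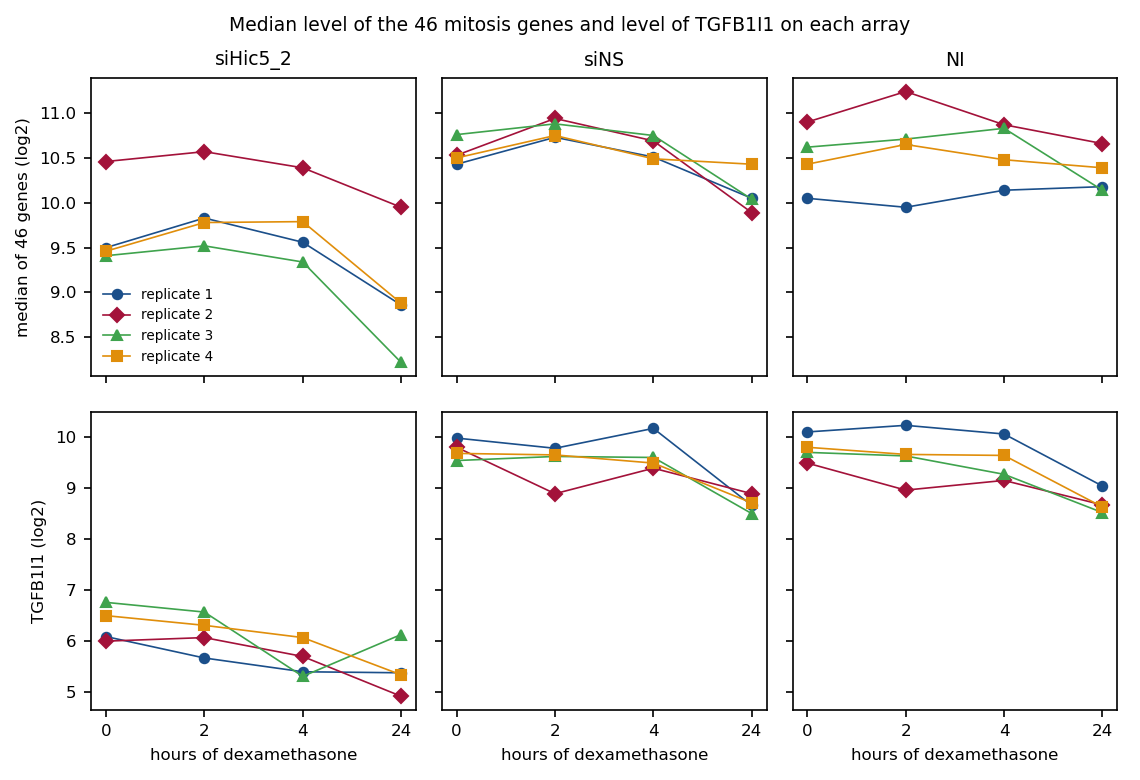
Median log2 intensity of the 46 mitosis genes (upper row) and log2 intensity of TGFB1I1 (lower row) on each of the 48 arrays, against hours of dexamethasone, with a column of panels for each transfection state and lines joining arrays of the same replicate number. Among siHic5_2 arrays, number 2 (10.46 at 0 h) lies above the other 3 (9.41 to 9.50 at 0 h) in the upper row and not in the lower row.

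The residual SD had a median of 0.537 over the 46 genes among siHic5_2 arrays, against 0.23 among siNS arrays and 0.373 among NI arrays. Over all kept probes it was 0.293, 0.291 and 0.307 in the same states. By gene, over all groups, it ran from 0.168 for BUB3 to 0.663 for PLK1. NI arrays numbered 1 were low for these genes, with median deviations of -0.63 to -0.19 from their group means, and those numbered 2 were high, with 0.29 to 0.48.

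The first comparison asked how the siRNA against Hic-5 changed these genes. They were lower in siHic5_2 cells than in siNS cells at every hormone time, with a median log2 difference of -0.86 over all times, against 0.02 over all 11886 genes. In a limma model of all 12 groups, 45 of the 46 genes were called lower over all times and 0 higher, at an adjusted p under 0.05, where 48.4% of all probes were called in either direction and 23.1% lower. The exception was BUB3. That model takes 1 spread per gene for all groups, while the median residual SD of the set was 0.537 among siHic5_2 and 0.23 among siNS arrays. Its SEs for these genes thus tend to be too small within siHic5_2 and too large within siNS. Same-numbered arrays of a state deviated together across times, so the 4 times were also averaged for each number, which left 4 values against 4. That fit called 37 genes lower and 0 higher, where 30.8% of all probes were called in either direction and 14.6% lower. CCNB1, AURKA, PLK1, CDCA8, BUB1B, TTK, MAD2L1 and TOP2A, with adjusted p between 0.0573 and 0.184, were the genes lost. Below, SEs and adjusted p over all times come from the model of 12 groups unless averaging is named. They take the 4 times of a number as separate, which overstates their precision.

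At single times 26 of the 46 genes were called lower at 0 h, 27 at 2 h, 26 at 4 h and 39 at 24 h, and 0 higher. Of all probes, 10.0%, 9.33%, 13.3% and 11.9% were called lower at those times. The median differences of the genes were -0.79, -0.83, -0.81 and -1.07. All 4 siHic5_2 arrays lay below all 4 siNS arrays for 17, 22, 18 and 13 of the genes, where 9.90%, 9.24%, 11.8% and 11.4% of all probes did so. The most genes were called and the fewest were free of overlap at 24 h, when the medians of the siHic5_2 arrays ran from 8.22 to 9.95. When the groups of a comparison were fitted on their own, 23, 26, 28 and 24 genes were called lower, where 7.17%, 6.87%, 9.81% and 9.21% of all probes were.

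Single siHic5_2 replicates moved these counts. Without number 2 at all times they were 39, 41, 39 and 45, and without number 3 they were 15, 17, 14 and 24. Shares of all probes are not given for fits without an array or replicate. Their counts show only how far calls of the set depended on single replicates, not whether the set moved apart from all probes. Leaving out 1 array of the groups compared gave as few as 11 at 0 h (without siHic5_2 number 3) and 11 at 4 h (without siHic5_2 number 3 or 4). It also gave 13 and 15 at 0 h without siHic5_2 number 4 and number 1, 13 at 0 h and 15 at 4 h without siNS number 3, and 17 at 4 h without siHic5_2 number 1. The direction held within slides that did not pair siHic5_2 number 2 with a siNS array, with medians of -1.63 to -0.95 over 9 such comparisons. On the slides that did, the median was 0.05 at 0 h and -0.05 at 24 h.

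**Figure D2:**
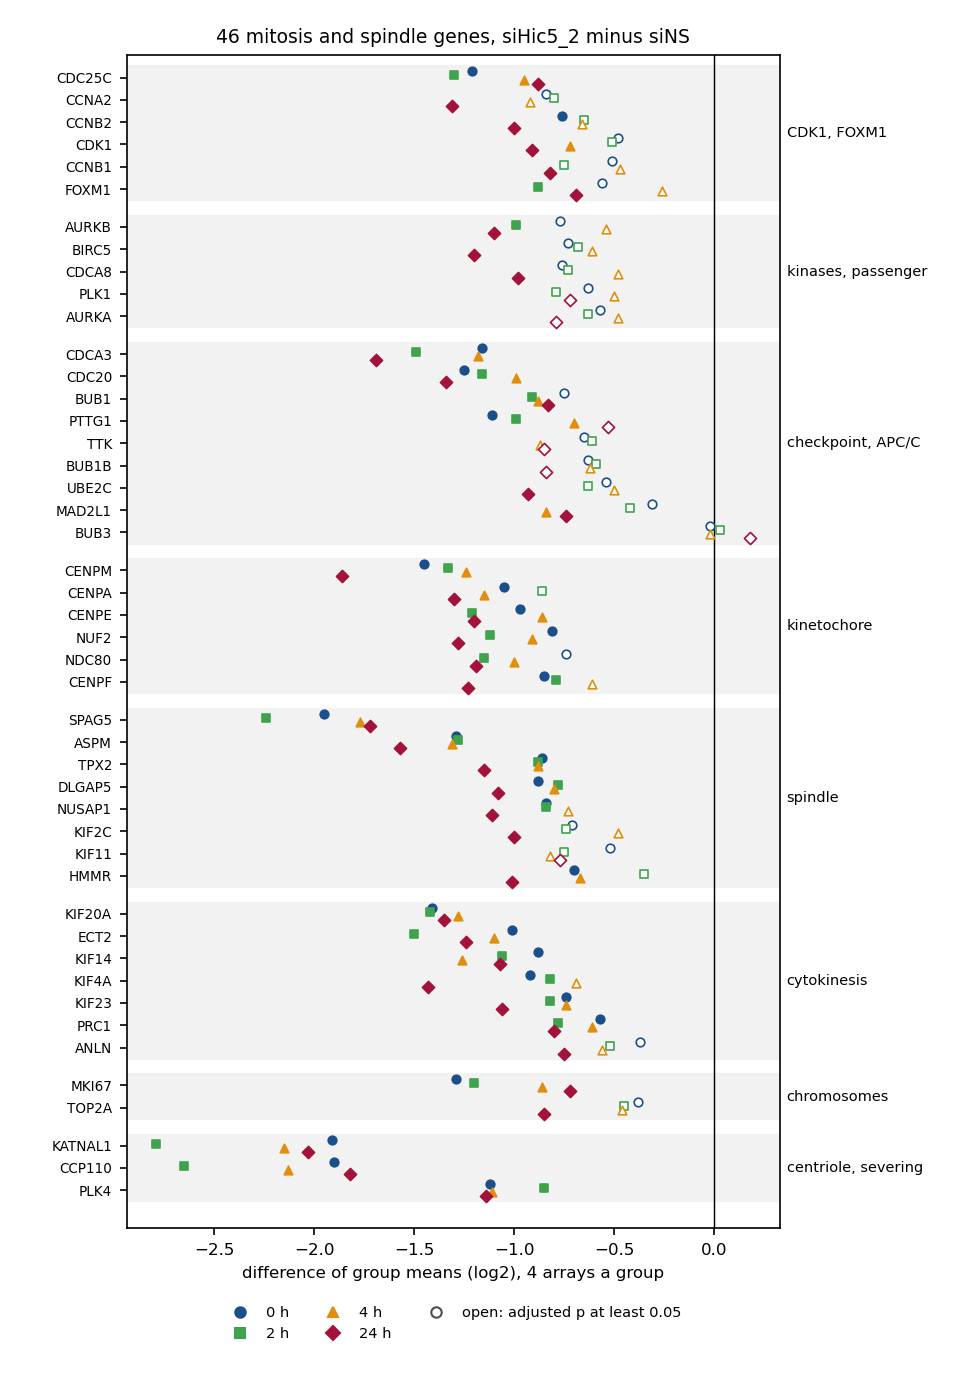
Difference of group means (log2 intensity, siHic5_2 minus siNS) of each of the 46 genes at 0, 2, 4 and 24 h of dexamethasone, arranged by role, with filled symbols where the adjusted p was under 0.05. Nearly all points lie left of 0, KATNAL1 and CCP110 lie far left at every time (-1.91 and -1.90 at 0 h), and BUB3 lies near 0.

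All 6 genes of mitotic entry were called lower over all times, with a median of -0.71. CDC25C, the phosphatase that activates CDK1, fell by 1.09 (SE 0.16), to 47.1% of its siNS level, and its 3 probes differed at 4 h (-2.08 to -0.95, all called lower). Cyclin A2 (CCNA2) fell by 0.97 (SE 0.18), cyclin B2 (CCNB2) by 0.77 (SE 0.14), CDK1 by 0.65 (SE 0.13) and the transcription factor FOXM1 by 0.60 (SE 0.13). At 0 h 2 of the 6 were called, and at 24 h all 6. CCNB1 was not called over all times when the times were averaged.

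Cyclin B1 (CCNB1), the main mitotic partner of CDK1, shows how far the replicates carried these calls. At 0 h it read 9.09, 9.96, 8.5 and 9.32 on the siHic5_2 arrays numbered 1 to 4, against 9.60, 9.74, 9.59 and 9.99 on the siNS arrays. At 24 h it read 7.95, 9.38, 7.56 and 8.32 with siHic5_2, against 8.84, 9.16, 9.0 and 9.49 with siNS. In both cases the groups overlapped through siHic5_2 number 2. The difference was -0.51 at 0 h (SE 0.30, adjusted p = 0.243) and -0.82 at 24 h (SE 0.30, adjusted p = 0.0409). The 24 h call of CCNB1 was lost in 6 of 8 fits that left out 1 array, with differences of -1.18 to -0.57 over the 8.

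The 5 mitotic kinases and passenger proteins were all called lower over all times (median -0.74), with 0 of 5 called at 0 h and 3 of 5 at 24 h. AURKA, PLK1 and CDCA8 were not called over all times when the times were averaged. AURKB, the kinase of the chromosomal passenger complex, fell by 0.85 (SE 0.17), its partners BIRC5 (survivin) by 0.81 (SE 0.14) and CDCA8 (borealin) by 0.74 (SE 0.18), and the spindle pole kinase AURKA by 0.62 (SE 0.17). For AURKB the siHic5_2 arrays read 7.46, 8.93, 6.29 and 8.02 at 24 h, against 8.77, 8.29, 8.80 and 9.24 on the siNS arrays. Number 2 again lay among the siNS values and number 3 far below them. The 24 h difference of AURKB was -1.10 (SE 0.34, adjusted p = 0.0136), and without siHic5_2 number 3 at all times it was -0.64 and not called. This SE pools the spread of all groups, while the siHic5_2 arrays of AURKB ran from 6.29 to 8.93 at 24 h.

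PLK1, a kinase of mitotic entry, spindle assembly and cytokinesis, had the widest spread of the set. At 0 h it read 7.02, 7.55, 6.11 and 7.02 with siHic5_2, against 7.28, 7.65, 7.35 and 7.96 with siNS. At 24 h it read 5.89, 7.84, 5.82 and 6.72 with siHic5_2, against 7.06, 7.16, 7.02 and 7.91 with siNS. The groups overlapped at both times, and PLK1 passed the test at no single time (adjusted p = 0.361 at 0 h and 0.27 at 24 h). Over all times its difference was -0.66 (SE 0.22, adjusted p = 0.0138), which with the times averaged had an adjusted p of 0.184.

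Of the 9 genes of the spindle checkpoint and anaphase, 8 were called lower over all times (median -0.74), 3 at 0 h and 5 at 24 h. BUB1B, TTK and MAD2L1 lost that call over all times when the times were averaged. CDC20, the activator of the anaphase-promoting complex, fell by 1.18 (SE 0.14), to 44.0% of siNS, and the securin PTTG1 by 0.83 (SE 0.12). The checkpoint kinases BUB1 and TTK fell by 0.84 (SE 0.15) and 0.74 (SE 0.18). UBE2C, the ubiquitin-conjugating enzyme of the complex, fell by 0.65 (SE 0.12) on its brightest probe and by 1.68 on its other probe. MAD2L1, the inhibitor of CDC20, fell by 0.58 (SE 0.14), with probes of opposite sign at 4 h (-0.84 and 0.23). BUB3, a checkpoint protein, differed by 0.04 (SE 0.06), and its 4 probes ran from -0.09 to 0.34, with 1 called higher.

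CDCA3, a protein that promotes mitotic entry by targeting the inhibitor kinase WEE1, was the gene of this role with the largest difference over all times. At 0 h it read 7.93, 8.71, 7.73 and 7.56 with siHic5_2, against 8.98, 9.22, 9.40 and 8.97 with siNS. At 24 h it read 7.21, 8.29, 6.07 and 7.30 with siHic5_2, against 8.68, 8.91, 8.77 and 9.26 with siNS. The groups did not overlap at either time, and number 2 was the siHic5_2 array nearest to siNS. CDCA3 fell by 1.38 over all times (SE 0.19, adjusted p = 6.79e-08), to 38.5% of siNS, and with the times averaged the adjusted p was 0.0052. Its call at 0 h (-1.16, SE 0.37) was lost in 3 of 8 fits that left out 1 array.

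All 6 kinetochore genes were called lower over all times (median -1.05), 5 at 0 h and 6 at 24 h. The centromeric histone CENPA fell by 1.09 (SE 0.19), the kinesin CENPE by 1.06 (SE 0.15), and NUF2 and NDC80, partners in the complex that binds microtubules, by 1.03 (SE 0.15) and 1.02 (SE 0.18). CENPM, a subunit of the inner kinetochore network, read 9.98, 10.60, 10.02 and 9.77 with siHic5_2 at 0 h, against 11.37, 11.77, 11.64 and 11.38 with siNS. At 24 h CENPM read 8.17, 9.10, 7.72 and 8.34 with siHic5_2, against 10.25, 9.82, 10.12 and 10.59 with siNS. Every siHic5_2 array, number 2 included, was below every siNS array of its time. CENPM fell by 1.47 over all times (SE 0.12, adjusted p = 1.62e-13), to 36.1% of siNS (adjusted p = 0.000155 with the times averaged).

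The 8 spindle genes were all called lower over all times (median -0.88), 6 at 0 h and 7 at 24 h. TPX2, an activator of AURKA at the spindle, fell by 0.94 (SE 0.13), NUSAP1, a microtubule bundler, by 0.88 (SE 0.14), and the kinesins KIF2C and KIF11 by 0.73 (SE 0.14) and 0.71 (SE 0.16). SPAG5 (astrin), a spindle and kinetochore protein, read 6.0, 6.76, 5.94 and 5.48 with siHic5_2 at 0 h, against 7.76, 8.02, 8.13 and 8.06 with siNS. At 24 h SPAG5 read 5.85, 6.25, 5.14 and 5.48 with siHic5_2, against 7.31, 7.54, 7.08 and 7.69 with siNS. The groups were apart at both times, with SPAG5 above background on 1 of 4 siHic5_2 arrays at each and on all siNS arrays. SPAG5 fell by 1.92 over all times (SE 0.17, adjusted p = 1.4e-12), a value that rests on 7 of 16 siHic5_2 arrays above background. That p takes the 4 times of a number as separate, and SPAG5 was also called with the times averaged.

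ASPM, a spindle pole protein, read 9.08, 10.00, 8.45 and 8.66 with siHic5_2 at 0 h, against 10.37, 10.26, 10.29 and 10.41 with siNS. At 24 h ASPM read 8.16, 9.94, 7.79 and 8.65 with siHic5_2, against 10.45, 10.09, 9.89 and 10.38 with siNS. The siNS arrays lay close together, siHic5_2 number 2 was just under them at 0 h and among them at 24 h, and the other 3 were lower. ASPM fell by 1.36 over all times (SE 0.16, adjusted p = 1.89e-09), to 38.9% of siNS.

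All 7 cytokinesis genes were called lower over all times (median -0.97), 6 at 0 h and 7 at 24 h. The kinesins KIF14, KIF4A and KIF23 fell by 1.07 (SE 0.12), 0.97 (SE 0.15) and 0.84 (SE 0.13), and the midzone bundler PRC1 by 0.69 (SE 0.10). KIF20A, a kinesin of the central spindle, read 9.17, 10.32, 8.74 and 8.87 with siHic5_2 at 0 h, against 10.64, 10.51, 10.59 and 11.02 with siNS. At 24 h KIF20A read 8.97, 10.10, 8.21 and 9.28 with siHic5_2, against 10.47, 10.09, 10.36 and 11.04 with siNS. Number 2 was just below the siNS arrays at 0 h and level with the lowest of them at 24 h. KIF20A fell by 1.37 over all times (SE 0.17, adjusted p = 1.52e-08), to 38.8% of siNS.

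ECT2, the exchange factor that activates RhoA at the cleavage furrow, read 8.47, 9.31, 8.81 and 8.66 with siHic5_2 at 0 h, against 9.33, 10.06, 10.03 and 9.86 with siNS. At 24 h ECT2 read 8.0, 8.90, 6.96 and 8.15 with siHic5_2, against 8.66, 9.48, 9.23 and 9.61 with siNS. The groups did not overlap at 0 h, with siHic5_2 number 2 next to siNS number 1, and overlapped at 24 h through the same arrays. ECT2 fell by 1.21 over all times (SE 0.17, adjusted p = 1.18e-07), to 43.2% of siNS, while its call at 0 h (-1.01, SE 0.34) was lost in 6 of 8 fits that left out 1 array.

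Both chromosome genes were called lower over all times. TOP2A, the topoisomerase that untangles sister chromatids, fell by 0.54 (SE 0.12), to 68.9% of siNS, the smallest of the called differences over all times. TOP2A was not called when the times were averaged. MKI67, which coats mitotic chromosomes and is the Ki-67 proliferation marker, read 5.59, 6.90, 5.65 and 5.47 with siHic5_2 at 0 h, against 7.41, 7.09, 7.06 and 7.21 with siNS. All siHic5_2 arrays were lower, number 2 only slightly and alone among them above background, and the difference was -1.29 (SE 0.25, adjusted p = 0.000206). At 24 h MKI67 was above background on 0 of 4 siHic5_2 arrays and 1 of 4 siNS arrays, so that no fold is given there.

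Over all times, the 3 genes of centrioles and microtubule severing held the 2 largest differences of the set, while at 0 h SPAG5 (-1.95) differed slightly more than either. PLK4, the kinase that starts centriole duplication, fell by 1.06 over all times (SE 0.12), to 48.1% of siNS. CCP110, a cap protein of centrioles, read 7.03, 7.62, 7.49 and 7.25 with siHic5_2 at 0 h, against 9.08, 9.53, 9.32 and 9.08 with siNS. At 24 h CCP110 read 7.21, 7.30, 6.69 and 7.31 with siHic5_2, against 9.0, 8.87, 8.93 and 8.99 with siNS. The states did not overlap at either time, and number 2 lay close to the other siHic5_2 arrays. CCP110 fell by 2.13 over all times (SE 0.11, adjusted p = 1.07e-18), to 22.9% of siNS.

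KATNAL1, a katanin subunit that severs microtubules, read 6.88, 7.26, 6.83 and 6.40 with siHic5_2 at 0 h, against 8.66, 8.65, 8.94 and 8.75 with siNS. At 24 h KATNAL1 read 6.39, 6.64, 6.03 and 6.25 with siHic5_2, against 8.38, 8.33, 8.34 and 8.40 with siNS. No siHic5_2 array reached any siNS array at either time. KATNAL1 fell by 2.22 over all times (SE 0.12, adjusted p = 7.28e-18), to 21.4% of siNS, and was above background on 4, 2, 2 and 3 of the 4 siHic5_2 arrays at 0, 2, 4 and 24 h. Of its 3 probes only 1 passed the filter, so its values could not be compared with another kept probe. With the times averaged, the adjusted p was 1.04e-05 for KATNAL1 and 6.29e-06 for CCP110. These were the 2 genes of the 46 whose 16 siHic5_2 arrays all lay below all 16 siNS arrays, where 1.05% of all probes did so. On siHic5_2 number 2 at 0 h the difference from the siNS mean was -1.49 for KATNAL1 and -1.63 for CCP110, while the median of the 46 genes was -0.08.

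**Figure D3:**
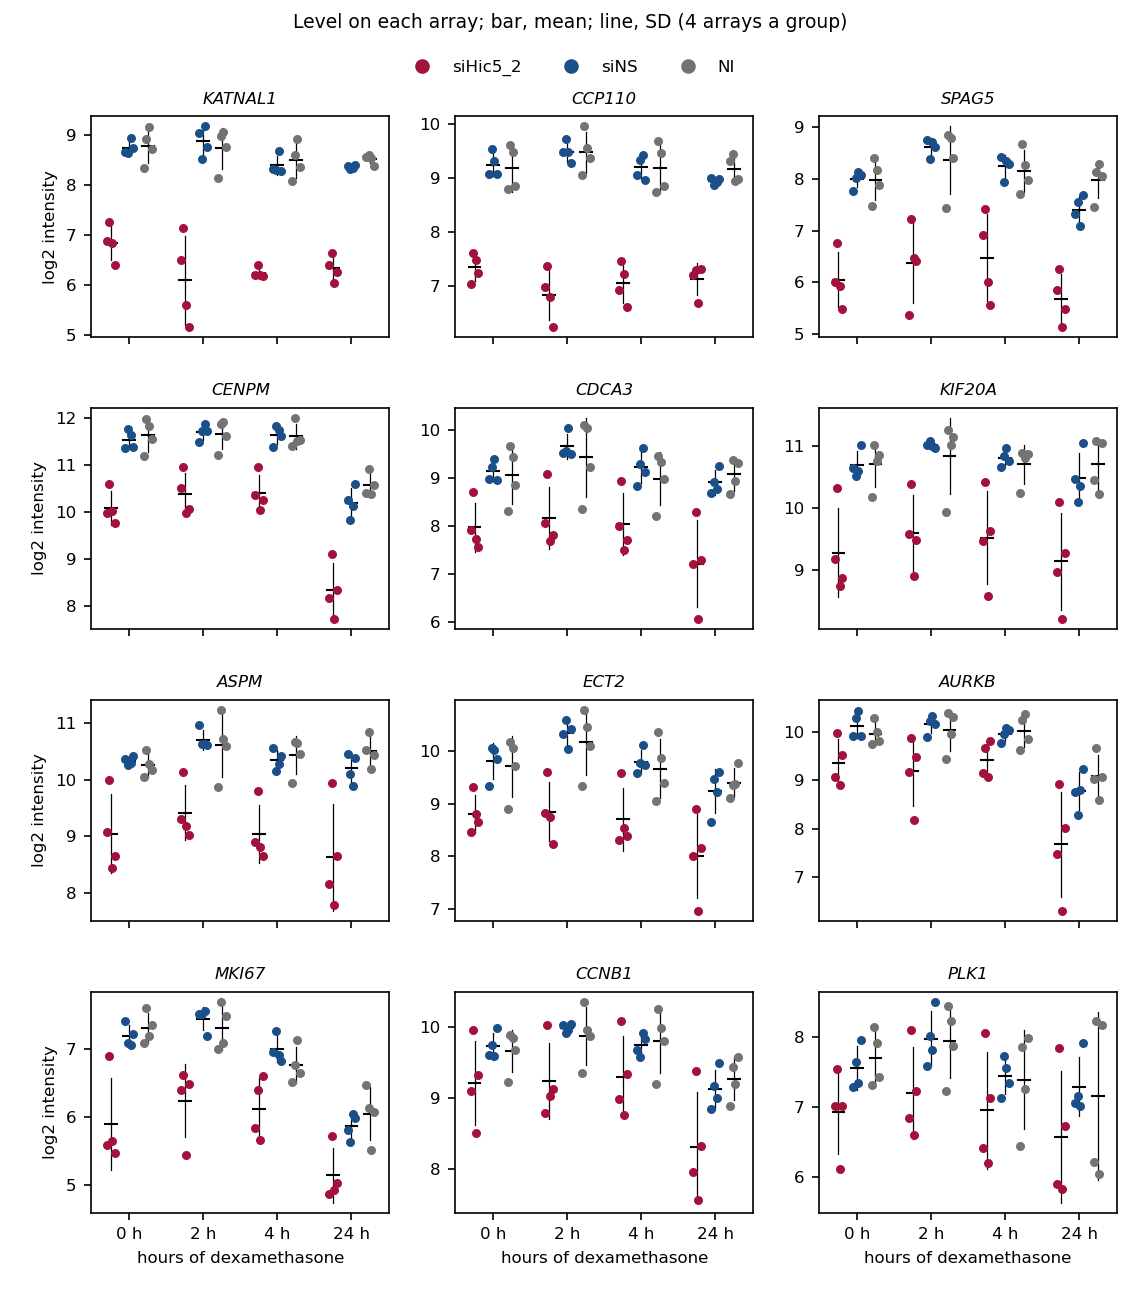
Log2 intensity of 12 of the mitosis genes on every array in each of the 12 groups, with a bar at the mean and a line of 1 SD on either side (n = 4 arrays). KATNAL1 and CCP110 show siHic5_2 arrays clear of siNS and NI arrays at all times, whereas in CCNB1 and PLK1 the siHic5_2 arrays (8.5 to 9.96 for CCNB1 at 0 h) overlap those of siNS (9.59 to 9.99).

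Because most of the set moved together, promoters are shown for 3 of the genes with the largest differences that hold the elements named above, and for CCP110, in which no such letters were found. They come from RefSeq (GRCh38.p14) and run from 250 bases before to 50 bases after the start of the gene, 5′ to 3′ on the strand of the gene. CDCA3 is at chr12:6851237-6851536 (minus strand), ASPM at chr1:197146620-197146919 (minus strand), KIF20A at chr5:138178862-138179161 (plus strand) and CCP110 at chr16:19523692-19523991 (plus strand). Capitals mark TTTGAA and TTTAAA, both written forms of CHR, and CCAAT, each on either strand.
CDCA3: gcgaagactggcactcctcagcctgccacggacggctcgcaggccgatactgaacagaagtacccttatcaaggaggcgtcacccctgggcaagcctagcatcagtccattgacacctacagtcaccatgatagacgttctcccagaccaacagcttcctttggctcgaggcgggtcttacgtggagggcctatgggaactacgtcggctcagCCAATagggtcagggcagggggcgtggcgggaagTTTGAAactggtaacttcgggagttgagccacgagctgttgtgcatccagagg
ASPM: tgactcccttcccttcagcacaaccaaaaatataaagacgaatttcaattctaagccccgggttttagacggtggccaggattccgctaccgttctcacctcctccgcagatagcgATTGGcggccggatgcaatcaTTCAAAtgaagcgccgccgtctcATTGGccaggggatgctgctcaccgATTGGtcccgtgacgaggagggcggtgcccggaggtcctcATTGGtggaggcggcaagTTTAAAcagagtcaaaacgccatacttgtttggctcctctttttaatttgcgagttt
KIF20A: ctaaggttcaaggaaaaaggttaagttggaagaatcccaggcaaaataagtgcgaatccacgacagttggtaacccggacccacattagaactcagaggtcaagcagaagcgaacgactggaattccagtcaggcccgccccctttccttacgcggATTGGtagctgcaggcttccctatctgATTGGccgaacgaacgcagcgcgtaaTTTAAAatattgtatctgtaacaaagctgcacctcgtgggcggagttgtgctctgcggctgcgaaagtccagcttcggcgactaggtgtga
CCP110: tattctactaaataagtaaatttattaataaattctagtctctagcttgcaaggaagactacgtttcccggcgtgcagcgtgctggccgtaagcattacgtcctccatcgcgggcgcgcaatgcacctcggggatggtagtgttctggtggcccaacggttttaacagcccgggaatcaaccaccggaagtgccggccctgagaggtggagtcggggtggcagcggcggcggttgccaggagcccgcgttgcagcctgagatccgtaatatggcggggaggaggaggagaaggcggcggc

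In CDCA3 the CHR letters TTTGAA begin 3 bases before the start and CCAAT begins 37 bases before it. ASPM holds TTTAAA 7 bases before the start, TTTGAA on the other strand and CCAAT 4 times on the other strand. KIF20A holds TTTAAA 41 bases before the start and CCAAT 2 times on the other strand.

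Of the 46 genes, 38 had a promoter entry. Both strands were searched, TTTAAA being its own reverse complement, and a gene with several entries counted when any of them held the letters. TTTGAA was in 28 of the 38 genes (73.7%), against 18.2% of 27305 genes with an entry, and TTTAAA in 14 (36.8%), against 14.5%. Either form was in 33 (86.8%), against 27.9%. CCAAT was in 29 (76.3%), against 39.7%, and CCAAT with TTTGAA in 23 (60.5%), against 8.4%. KATNAL1 and CCP110, the genes with the largest differences over all times, held none of these letters in the window. A match is a description of the letters and does not show that a factor binds there.

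The second comparison asked what dexamethasone did to the same genes within each state. After 24 h they were lower than at 0 h in siHic5_2, siNS and NI cells, with median differences of -0.73, -0.48 and -0.25, against 0.01, -0.01 and -0.03 over all genes. In siHic5_2 cells 22 of 46 were called lower, in siNS cells 9 and in NI cells 5, and 0 higher in any state. Of all probes, 14.9%, 16.7% and 16.8% were called lower.

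These counts moved with the model, and so did their standing against all probes. With the replicate number as a block within each state, 34, 29 and 14 genes were called lower, where 19.8%, 21.5% and 21.7% of all probes were. Fitting each state on its own used the spread of that state alone. The counts were then 16, 29 and 6, where 13.6%, 16.6% and 15.1% of all probes were called lower. The share of the set called lower was well above that of all probes in siHic5_2 cells in all 3 fits. In siNS cells it was near that share with all 12 groups and no block and well above it in the other 2 fits, and in NI cells it was above it only with the block. All 4 arrays of 24 h lay below all 4 of 0 h for 6 genes in siHic5_2 cells, 21 in siNS cells and 5 in NI cells, where 13.6%, 16.2% and 15.2% of all probes did so. Without siHic5_2 number 2 at 0 h, or number 3 at 24 h, 12 genes were called in siHic5_2 cells. In NI cells 3 genes were called without number 1, 3 or 4 at 24 h or number 2 or 3 at 0 h, and 8 without number 1 at 0 h. Shares of all probes are not given for these fits without an array.

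Slides that held both times did not all give the same sign. Within them the median of the 46 genes was -0.41, -0.65 and -0.74 in siNS cells. In NI cells it was -0.65 and 0.59, and in siHic5_2 cells -2.19, -0.44, -0.69 and 0.29. Each of these sets single arrays against each other, and the values of 0.29 and 0.59 had number 2 at 24 h and number 1 at 0 h. The value of -2.19 in siHic5_2 cells had number 3 at 24 h and number 2 at 0 h, the replicates that lay lowest and highest in that state. In NI cells the value of -0.65 had number 1 at 24 h and number 3 at 0 h.

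**Figure D4:**
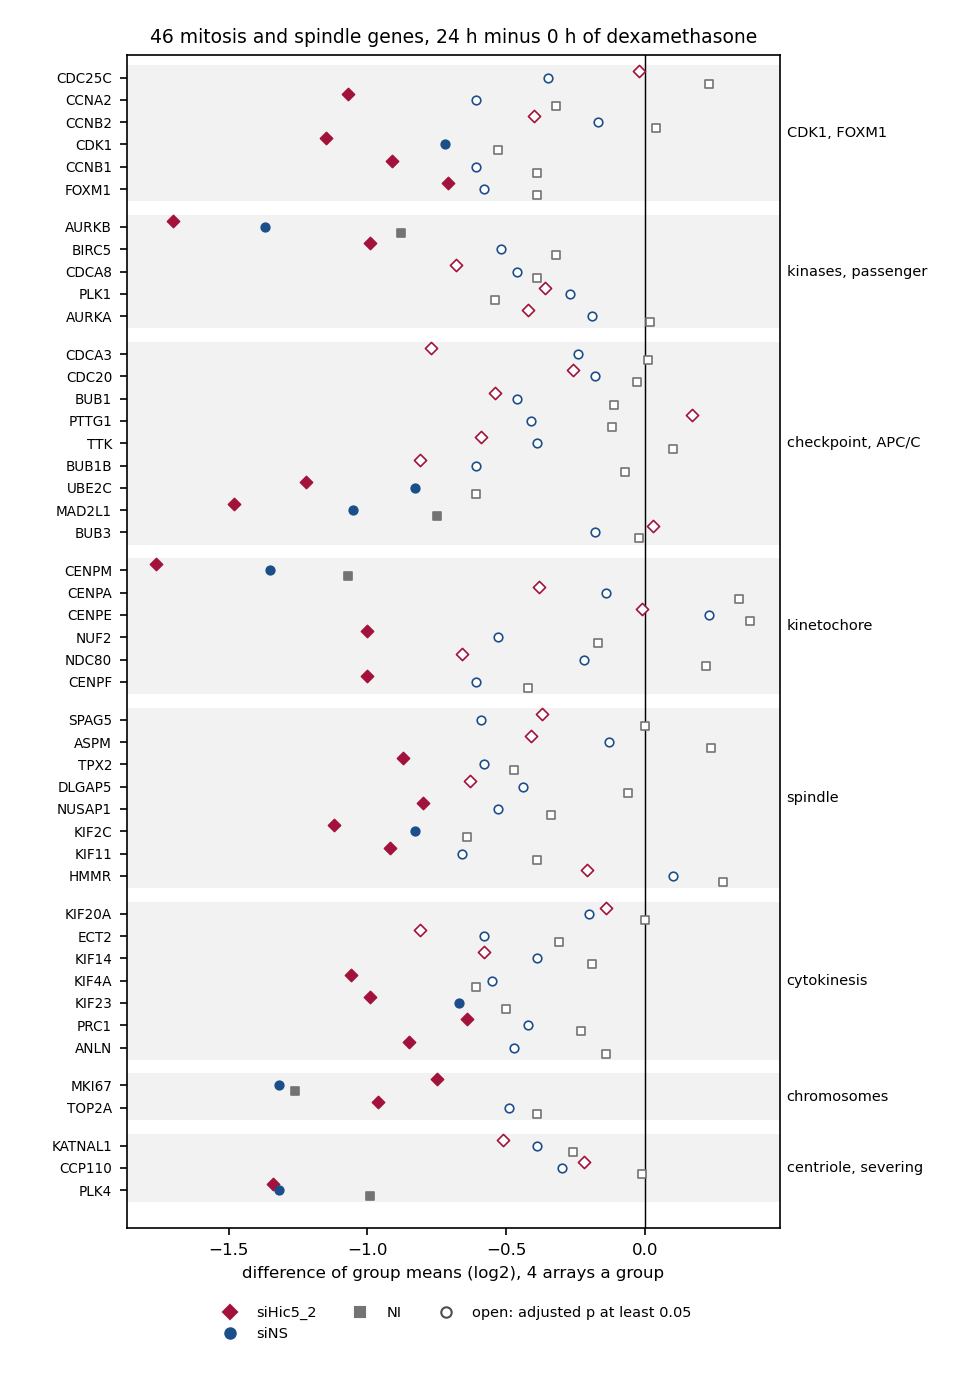
Difference of group means (log2 intensity, 24 h minus 0 h of dexamethasone) of each of the 46 genes in siHic5_2, siNS and NI cells, arranged by role, with filled symbols where the adjusted p was under 0.05. CENPM, AURKB and PLK4 lie left of 0 with filled symbols in all 3 states (CENPM -1.76, -1.35 and -1.07), and KIF20A lies near 0 in all 3.

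AURKB and CENPM had the largest called differences after 24 h in siNS cells. AURKB read 8.77, 8.29, 8.80 and 9.24 at 24 h, against 9.92, 10.29, 10.44 and 9.92 at 0 h, and CENPM 10.25, 9.82, 10.12 and 10.59 at 24 h, against 11.37, 11.77, 11.64 and 11.38 at 0 h. The times did not overlap for either gene. AURKB fell by 1.37 (SE 0.34, adjusted p = 0.00138) and CENPM by 1.35 (SE 0.23, adjusted p = 1.23e-05), to 39.3% of its 0 h level. In siHic5_2 cells AURKB fell by 1.70 and CENPM by 1.76, and in NI cells they fell by 0.88 and 1.07.

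In the fit of all 12 groups with no block, the other genes called in siNS cells were PLK4 (-1.32), MAD2L1 (-1.05), UBE2C (-0.83), KIF2C (-0.83), CDK1 (-0.72), KIF23 (-0.67) and MKI67. In NI cells PLK4 fell by 0.99 and MAD2L1 by 0.75, and the NI call of AURKB was lost in 6 of 8 fits that left out 1 array. MKI67 was called lower in all 3 states, but it was above background on only 0, 1 and 2 of the 4 arrays of 24 h in siHic5_2, siNS and NI cells, so its size of change is not given. In siHic5_2 cells, CDK1 fell by 1.15, UBE2C by 1.22, CCNA2 by 1.07 and KIF4A by 1.06. By role, 24 h calls in this fit in siHic5_2 and siNS cells were 4 and 1 of 6 entry genes, 2 and 1 of 5 kinase genes, 2 and 2 of 9 checkpoint genes and 3 and 1 of 6 kinetochore genes. They were 4 and 1 of 8 spindle genes, 4 and 1 of 7 cytokinesis genes, 2 and 1 of 2 chromosome genes and 1 and 1 of 3 centriole and severing genes. Of all probes, 14.9% and 16.7% were called lower in siHic5_2 and siNS cells. Most siNS counts were near that share, and roles of so few genes cannot be told apart by them. With the block within each state, the same counts were 5 and 4 of 6 entry genes, 3 and 2 of 5 kinase genes, 6 and 5 of 9 checkpoint genes and 4 and 3 of 6 kinetochore genes. They were then 6 and 6 of 8 spindle genes, 6 and 6 of 7 cytokinesis genes, 2 and 2 of 2 chromosome genes and 2 and 1 of 3 centriole and severing genes. With the block, 19.8% and 21.5% of all probes were called lower. Role counts are not given for each state fitted on its own, where the set had more calls in siNS than in siHic5_2 cells.

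KATNAL1 and CCP110, which differed most with siHic5_2 over all times, were not called after 24 h of hormone in any state without the block. Their differences were -0.51 and -0.22 in siHic5_2 cells, -0.39 and -0.30 in siNS cells and -0.26 and -0.01 in NI cells. KIF20A, ASPM, CDC20 and CENPE were also not called in any state in that fit, with -0.14, -0.41, -0.26 and -0.01 in siHic5_2 cells and -0.20, -0.13, -0.18 and 0.23 in siNS cells. With the block, KATNAL1 (adjusted p = 0.0217) and ASPM (adjusted p = 0.0438) were called lower in siHic5_2 cells, and none of these 6 genes was called in siNS or NI cells.

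After 2 and 4 h no gene of the set was called in any state, where 2.33% and 9.70% of all probes were called in either direction in siHic5_2 cells, 3.91% and 6.38% in siNS cells and 2.33% and 6.72% in NI cells. The medians of the 46 genes were 0.17 and 0.06 in siHic5_2 cells, 0.18 and 0.02 in siNS cells and 0.10 and 0.06 in NI cells. In siNS cells all 4 arrays of 2 h lay above all 4 of 0 h for BUB1, CDCA3, CENPE, NDC80, SPAG5, ASPM and PRC1, 7 genes, where 3.69% of all probes did so. With the block within each state, CENPE rose by 0.68 at 2 h in siNS cells (adjusted p = 0.00807), where 3.20% of all probes were called higher. In siHic5_2 cells that fit called KATNAL1 lower at 2 h (-0.75, adjusted p = 0.00818) and at 4 h (-0.60), MAD2L1 lower at 4 h (-0.56, on 1 of 2 probes), and CENPE and PTTG1 higher at 4 h (0.48 each). Of all probes it called 1.97% lower at 2 h, and 9.48% lower and 7.40% higher at 4 h. When siNS cells were fitted on their own, CENPE (0.68, adjusted p = 0.0136) and SPAG5 (0.62, adjusted p = 0.0348) were called higher at 2 h, where 1.64% of all probes were.

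Whether the hormone acted differently with siHic5_2 was tested as the difference of the responses, siHic5_2 minus siNS. No gene of the set was called at 2, 4 or 24 h, where 0.110%, 0.383% and 2.80% of all probes were called in either direction, and the median SE of such a difference was 0.312 over all probes. At 24 h the median of the 46 genes was -0.24, against 0.01 over all genes, and 39 of the 46 were below 0. For CENPM the difference was -0.41 (adjusted p = 0.718) and for AURKB -0.33 (adjusted p = 0.894). With the block within each state PTTG1 was called at 24 h (0.58, adjusted p = 0.0175), where 6.97% of all probes were called in either direction.

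siNS and NI cells were compared over all times as a check of transfection itself. The median of the 46 genes was -0.01 and their differences ran from -0.14 to 0.09. In limma 0 of the 46 genes and 0.00% of 20912 probes were called, with 379 probes at an unadjusted p under 0.05. With the times averaged, or the 2 states fitted on their own, the number called was also 0. Deviations of same-numbered siNS and NI arrays correlated by -0.01 to 0.74, and these fits did not pair them. A lack of calls here therefore does not show that transfection had no effect.

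Of 113 other measured genes of mitosis, 89 were called lower and 5 higher with siHic5_2 over all times, where 23.1% and 25.2% of all probes were, with a median of -0.58. Counts for this list come from the fit of all 12 groups, which takes the 4 times of a replicate number as separate. No count with the times averaged is given for it. CENPU (-1.98, SE 0.15), CENPH (-1.69, SE 0.15) and CENPI (-1.50, SE 0.14), subunits of the same inner kinetochore network as CENPM, were the lowest. MAD1L1 (0.64, SE 0.11), a checkpoint protein, CDC26 (0.33, SE 0.06), a subunit of the anaphase-promoting complex, and CENPV (0.30, SE 0.12) were the highest called. After 24 h of hormone, 45 of the 113 were called lower and 5 higher in siHic5_2 cells, 51 and 4 in siNS cells and 35 and 4 in NI cells, with medians of -0.44, -0.51 and -0.30. In the same states 14.9%, 16.7% and 16.8% of all probes were called lower, and 3019, 3346 and 3248 of the 20912 probes higher.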

How the data were processed

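Total RNA of 48 samples was measured on Illumina HT-12 bead arrays on 6 slides. The deposited non-normalized table holds the scanner's mean probe intensity per array and a detection p-value per probe, per the file headers. A deposited table of log2 values, made by the authors from these arrays, served as an alternative. Its tools were limma 3.14.4 and R 2.15.3, per the submitters' processing notes; further steps are not given in the sources used here. Because the deposited detection p-value columns did not go with the arrays they are named for (0 of 48 matched their own array and 32 matched another within 0.0013), detection was recomputed from 770 negative control probes.

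Intensities were background-corrected and quantile-normalized with neqc (offset 16) in limma 3.58.1 under R 4.3.3. Of 47323 probes, 20912 had a detection p-value under 0.01 on at least 4 arrays and were kept. A model of 12 group means (36 residual degrees of freedom) was fitted to all kept probes, with Benjamini-Hochberg adjustment over them, and a probe was called at an adjusted p under 0.05. The median SE of a difference of 2 groups was 0.221, and the number of arrays limits the precision. The fit was tested on simulated data, where it recovered 18% of log2 changes of 0.5 and 82% of log2 changes of 1. The simulated arrays had independent errors and the same spread in all groups. That test therefore does not cover the shared deviations of same-numbered arrays.

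Symbols came from the platform annotation, 30113 probes having 1 symbol, 8 several and 17202 none. Of the 46 genes 18 had over 1 kept probe, and the one with the highest mean was read. Values in every array are given for the 8 genes with the largest called difference over all times between siHic5_2 and siNS, the 2 largest called after 24 h in siNS cells, and MKI67, CCNB1, PLK1 and AURKB; other genes are given by role. The genes and lists were chosen with earlier results of these data known. Deviations of same-numbered arrays from their group means correlated by 0.08 to 0.73 between a hormone time and 0 h of a state (0.08 to 0.47 in siHic5_2), by -0.01 to 0.74 between siNS and NI, and by -0.22 to 0.08 between siHic5_2 and siNS. The numbers thus go with shared deviations between times of a state, least in siHic5_2, but not between siHic5_2 and siNS, and the labels do not say what they mark.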

Additional observations from a re-analysis of the deposited data

Results flagged for a closer look

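Among 168 sets of 4 arrays, for 12 of the genes, TGFB1I1 and the median of the set, 10 held an array far from the other 3 by Dixon's criterion, which chance alone meets in about 1 set in 20. The median of the 46 genes at 0 h was 10.46 on siHic5_2 number 2, against 9.41 to 9.50 on the others. MKI67 was 6.90 on the same array, against 5.47 to 5.65, and KATNAL1 was 6.40 on siHic5_2 number 2 at 4 h, against 6.17 to 6.20. CCP110 was 6.69 on siHic5_2 number 3 at 24 h, against 7.21 to 7.31. Among siNS arrays, KATNAL1 was 8.68 on number 3 at 4 h, against 8.28 to 8.33, and CDCA3 was 10.05 on number 3 at 2 h, against 9.49 to 9.57. ASPM was 10.96 on siNS number 1 at 2 h, against 10.61 to 10.62, and MKI67 was 7.18 on siNS number 4 at 2 h, against 7.51 to 7.55. PLK1 was 7.91 on siNS number 4 at 24 h, against 7.02 to 7.16. In NI cells KIF20A was 10.24 on number 1 at 4 h, against 10.81 to 10.89.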

How the results depend on the processing

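No called difference of the 46 genes changed sign under the settings run on it, while differences that were not called were not followed and other probes of BUB3 and MAD2L1 had the opposite sign. With siHic5_2 against siNS over all times the count lower was 42 to 45 when 1 array, or 1 replicate number of all groups, was left out, 45 in the authors' processed values and 37 with the times averaged. At 0, 2, 4 and 24 h it was 7 to 34, 9 to 37, 7 to 39 and 12 to 44 in the same fits, and without any filter 17 at 0 h and 17 at 4 h. Leaving out replicate 3 of all groups gave 13 at 2 h and 19 at 24 h. Of the genes called, 11 of 26, 16 of 27, 10 of 26 and 24 of 39 kept their call in every fit that left out an array. Chosen after seeing the data, leaving out siHic5_2 number 3 at all times gave 15, 17, 14 and 24, leaving out siHic5_2 number 2 at all times gave 39, 41, 39 and 45, and fitting the groups compared alone gave 24 at 24 h. After 24 h of hormone the counts were 12 to 32 in siHic5_2, 6 to 10 in siNS and 3 to 8 in NI cells with 1 array or 1 number of all groups left out, and 3 in NI cells without a filter. At 2 and 4 h in siHic5_2 cells these ranges were 0 to 1 and 0 to 1, and elsewhere 0 to 0. TGFB1I1 differed by -3.55 to -3.30, -3.53 to -3.17, -4.19 to -3.87 and -3.48 to -3.07 at the 4 times.

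The replicate number as a block over all groups gave 18 in siNS and 9 in NI cells after 24 h, and 35, 35, 36 and 44 for siHic5_2 against siNS. Pairing within states, chosen after seeing the data, gave 34, 29 and 14 after 24 h in siHic5_2, siNS and NI cells, 1 and 4 at 2 and 4 h in siHic5_2 cells, 1 at 2 h in siNS cells and 1 for the 24 h difference of responses. As a random block (correlation 0.291) it gave 22 in siNS and 11 in NI cells after 24 h, 1 and 3 at 2 and 4 h in siHic5_2 cells and 1 at 2 h in siNS cells. Leaving out siHic5_2 number 2 at all times gave 1 at 2 h in siHic5_2 cells, and the groups compared alone gave 29 after 24 h and 2 (higher) after 2 h in siNS cells. Of 48 arrays, 38 had their highest mean correlation with the arrays of their own number in other groups. The causes of these shifts were not tested. Counts of this section that have no share of all probes, here or above, do not show whether the set moved apart from all probes.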

Other observations

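DNA replication genes, transcribed earlier in the cell cycle than the mitosis genes, were also lower in siHic5_2 than in siNS cells. Of 44 measured, 36 were called lower and 0 higher over all times, with a median of -0.63, where 23.1% of all probes were called lower. RRM2 and RRM1, the subunits of ribonucleotide reductase, fell by 3.06 (SE 0.19) and 1.39 (SE 0.12), and POLD1, the catalytic subunit of DNA polymerase delta, by 1.19 (SE 0.09). After 24 h of dexamethasone 36, 37 and 33 of the 44 were called lower in siHic5_2, siNS and NI cells, with medians of -0.94, -0.99 and -0.82, against -0.73, -0.48 and -0.25 for the mitosis genes. Of all probes, 14.9%, 16.7% and 16.8% were called lower there.

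Of 13 measured cell cycle inhibitors and repressors, 3 were called higher and 3 lower with siHic5_2 over all times, with a median of 0.08. These shares are near those of all probes, of which 25.2% were called higher and 23.1% lower. Among its members, CDKN1A (p21), an inhibitor of cyclin-dependent kinases, rose by 1.25 (SE 0.09), and E2F5 and GADD45A by 0.61 each (SE 0.09 and 0.10). RBL1 (p107) fell by 0.67 (SE 0.17), CDKN1B (p27) by 0.58 (SE 0.16) and CDKN2D by 0.53 (SE 0.14).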
